A study of Mus musculus with 6 samples.

Results

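The 33 genes described here are erythroid genes other than those of globin and heme synthesis. They encode 17 proteins of the red cell membrane and its skeleton, 8 regulators, 3 receptors and 5 enzymes, and were chosen by symbol from the gene table of a mouse articular cartilage RNA-seq experiment. All 33 symbols were found among its 34709 genes, and all 33 passed the filter on low values, an average of 0.5 FPKM across the libraries, which left 15373 genes to test. FPKM counts fragments relative to transcript length and to the total of the library, so it allows levels to be compared between genes of different length. The experiment has 3 libraries labelled as knockout (KO) and 3 labelled as wildtype (WT), all from the articular cartilage of aged male C57BL/6J mice, with littermates as controls according to the methods of the study. The labels name no treatment in either group, and no promoter or Cre that would limit the knockout to one cell type. The labels do not say whether each library came from 1 animal or from a pool, so the p-values below measure the spread between these libraries, which may be technical.

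Red cell precursors mature in the bone marrow. GATA1, with TAL1 and FOG1, and KLF1 switch on the genes of the membrane skeleton, the blood group antigens and carbonic anhydrase, while erythropoietin acting through its receptor keeps the precursors alive. Spectrin, ankyrin, the anion exchanger and the proteins that link them to actin give the red cell its shape. Articular cartilage itself holds no blood vessels and is not known as a site of red cell formation, although some of these genes, such as Tfrc and Car2, are also used by other cells. The introduction of the study describes chondrocytes as making large amounts of hemoglobin.

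The count totals ran from 52268311 to 63331135 per library, and the members had between 527 and 127407 counts in each library. On the first principal component of all tested genes, which held 45.9% of the variance, the library labelled KO replicate 1 lay at -24.6, between the WT libraries (-23.9 to -26.2), while KO replicates 2 and 3 lay at 50.7 and 49.6. Counts of KO replicates 2 and 3 differed by 5.82 times the variance that counting error gives, against 24.3 to 87.0 times for the other 14 pairs of libraries; they stood closer to counting error than any other pair, and their mean was counted as 1 sample. The transcript of the targeted gene was below the WT range in KO replicates 2 and 3 but not in the library labelled KO replicate 1, which goes against that label; whether its reads cover the deleted part was not tested. The comparison of KO with WT thus rests on 3 WT samples and 2 samples labelled KO, 1 of them with this doubt about its label, and results without it are given below; the fit of the 6 libraries as labelled is given beside it. Of 12 chondrocyte markers, 10 passed the filter, led by Prg4 (lubricin), and the 12 summed to 1443 FPKM in the library labelled KO replicate 1 and 612 to 834 FPKM in the other 5 libraries. Col2a1, the main cartilage collagen, was at 12.4 to 21.3 FPKM, and Matn3 at 0 to 0.202 FPKM. The 9 neutrophil markers summed to 25786 to 60410 FPKM and the 4 globin genes to 24386 to 107161 FPKM, both far above the chondrocyte markers.

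In these libraries the erythroid genes were, as a group, lower in KO than in WT cartilage. The difference on the log2 scale was below 0 for 32 of the 33 members, with a median of -0.62, whereas the median over all tested genes was -0.016 and 52.5% of them were below 0. With edgeR's quasi-likelihood test on the 5 samples, no member passed an adjusted p of 0.05 (the 33 adjusted p-values lay between 0.175 and 0.890), and 0% of the 15373 tested genes did. At an unadjusted p under 0.05, 25 members were lower and 0 were higher, where 6.07% of all tested genes were lower. DESeq2 on the same 5 samples called 13 members lower, against 2.27% of all tested genes. In the fit of the 6 libraries as labelled, which takes KO replicates 2 and 3 as separate samples, 6 members were called lower (1.25% of all tested genes were). A smaller share of red cell precursors in the tissue and less of each transcript per precursor cannot be told apart in bulk RNA. The part of other cells in these values was not tested.

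Within a gene the groups seldom overlapped. For 29 of the 33 members each of the 3 KO libraries was below each of the 3 WT libraries in FPKM, a pattern seen in 13.7% of all tested genes. The 4 members with overlapping groups were Xk, Icam4, Nfe2 and E2f2. WT replicate 3 was the highest library for 30 of the 33 members (13.8% of all tested genes). The lowest was KO replicate 2 for 17 (15.9% of all tested genes) and KO replicate 3 for 11 (15.4%). Relative to the mean of the WT libraries, the median over the members was -0.47 in the library labelled KO replicate 1, -0.82 in KO replicate 2 and -0.80 in KO replicate 3 on the log2 scale of CPM, counts scaled to the size of the library. The WT libraries stood at -0.12, -0.11 and 0.23 (SD 0.199, n = 3). The KO libraries thus lay below all WT libraries in this median, and KO replicates 2 and 3 lay lower than the library labelled KO replicate 1.

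Values below are FPKM and follow the order of replicates 1, 2 and 3 in each group, differences are log2, KO minus WT, from the 5-sample fit with their SE, and adjusted p-values are edgeR's with 5 samples unless said otherwise. For 9 members another annotated gene overlaps the gene, on the same strand at up to 2.51 FPKM (within Kel) and on the opposite strand at up to 6.12 FPKM (Tstd2 at Tmod1), and how strand was used in counting is not given in the sources used here.

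**Figure D1:**
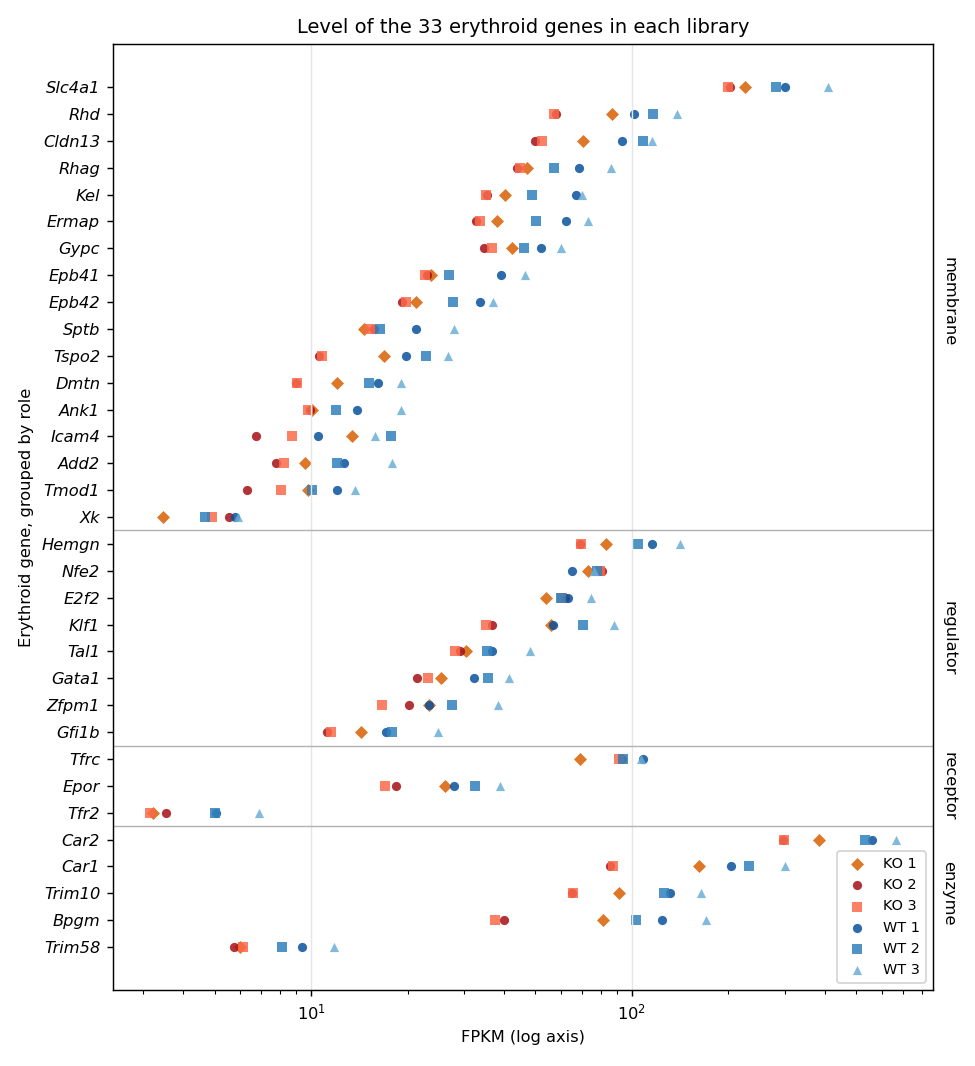
Level of each of the 33 erythroid genes (FPKM, log axis) in the 3 KO and 3 WT libraries, grouped by role and ordered by mean level, with 1 point per library. The KO points (orange and red) lie left of the WT points (blue) for 29 genes, and WT replicate 3 (triangles) is the rightmost point for 30.

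A library apart from the others could decide such a comparison, so each was left out in turn. Without the library labelled KO replicate 1 the median difference of the members was -0.80, with 28 members lower at an unadjusted p under 0.05 (9.89% of all tested genes), and 3 members, Cldn13, Car1 and Bpgm, passed the adjusted threshold (0.585% of all tested genes were called lower). With the library labelled KO replicate 1 as the sole KO sample the median was -0.48 and 9 members were lower at an unadjusted p under 0.05 (4.46% of all tested genes). Without WT replicate 3, the highest library, the median was -0.45, and 9 members in place of 25 were lower at an unadjusted p under 0.05 (3.97% of all tested genes). The differences of Ank1, Sptb, Tal1, Zfpm1 and E2f2 then shrank by more than 1.5 times, to -0.34, -0.29, -0.26, -0.26 and -0.079. Leaving out the library labelled KO replicate 1 moved 10 members by more than 1.5 times, and leaving out KO replicates 2 and 3 moved 14. In each of these 3 fits 32 members were lower in KO. Where a fit leaves 1 KO sample, that sample is assumed to vary like the WT samples. The library labelled KO replicate 1, although near the WT libraries on the first principal component, was below all 3 WT libraries for 31 members (37.4% of all tested genes), and KO replicates 2 and 3 were for 30 (25.8%).

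Membrane and skeleton genes were lower in KO for all 17 members, with a median difference of -0.65, and 14 of them had an unadjusted p under 0.05. The highest of them was Slc4a1, which encodes the anion exchanger of the red cell membrane, at 225, 203 and 200.01 FPKM in the KO libraries and 301, 280.5 and 410.0 FPKM in the WT libraries. Ank1, the ankyrin that ties this exchanger to spectrin, stood at 10.1, 9.91 and 9.75 FPKM in the KO libraries and 13.9, 11.9 and 19.0 FPKM in the WT libraries. Sptb, the beta chain of erythroid spectrin, was at 14.6, 15.7 and 15.3 FPKM in the KO libraries and 21.2, 16.4 and 28.0 FPKM in the WT libraries. KO and WT values did not overlap for these 3 genes, but the lowest WT library of Sptb, replicate 2, was close to the highest KO library. The differences were -0.61 ± 0.255 for Slc4a1, -0.56 ± 0.203 for Ank1 and -0.51 ± 0.216 for Sptb, with adjusted p-values of 0.361, 0.289 and 0.360.

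Epb42, on chr2:121017891-121037072 (GRCm38), encodes the protein that joins the anion exchanger to ankyrin. It was at 21.2, 19.2 and 19.8 FPKM in the KO libraries and 33.5, 27.7 and 36.8 FPKM in the WT libraries. All KO values lay below all WT values, and the spread within a group was small: the mean was 20.4 ± 1.22 FPKM in KO (SD, n = 2) and 32.7 ± 4.64 FPKM in WT (SD, n = 3). The difference of -0.66 ± 0.156 had the lowest adjusted p among the members by edgeR, 0.175 with 5 samples and 0.0367 with the 6 libraries as labelled. Epb41, which binds spectrin to actin, was at 23.6, 22.9 and 22.6 FPKM in the KO libraries and 39.1, 27.0 and 46.4 FPKM in the WT libraries. The KO libraries of Epb41 lay within 1 FPKM of each other while the WT libraries were spread, and the difference was -0.67 ± 0.238 with an adjusted p of 0.285. Add2 (beta-adducin), which caps actin at the skeleton's junctions, was at 9.60, 7.78 and 8.23 FPKM in the KO libraries and 12.6, 12.0 and 17.9 FPKM in the WT libraries. Dmtn (dematin), a bundler of actin at the same junctions, stood at 12.0, 8.96 and 9.01 FPKM in the KO libraries and 16.2, 15.2 and 19.1 FPKM in the WT libraries. Tmod1, which caps the other end of the filament, was at 9.76, 6.29 and 8.08 FPKM in the KO libraries and 12.0, 10.1 and 13.7 FPKM in the WT libraries. For Tmod1 the library labelled KO replicate 1 almost touched WT replicate 2, whereas for Add2 and Dmtn a gap remained. Differences of -0.66 ± 0.210, -0.65 ± 0.190 and -0.46 ± 0.203 were obtained for Add2, Dmtn and Tmod1, and only the last of these had an unadjusted p above 0.05 (0.0557).

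Ermap, Kel and Cldn13, which encode proteins of the cell surface, were 3 of the 6 members called with the libraries as labelled, while Rhag, Rhd, Gypc, Icam4 and Xk were not, with adjusted p-values of 0.0575 to 0.461 in that fit. Ermap, at chr4:119175457-119190011, encodes the carrier of the Scianna antigens and was at 37.9, 32.6 and 33.7 FPKM in the KO libraries and 62.5, 50.2 and 73.0 FPKM in the WT libraries. Kel, at chr6:41686330-41704339, encodes the Kell glycoprotein, an endopeptidase, and stood at 40.1, 35.4 and 35.0 FPKM in the KO libraries and 67.1, 48.9 and 70.1 FPKM in the WT libraries. Cldn13, a claudin at chr5:134914249-134915526, was at 70.3, 50.0 and 52.3 FPKM in the KO libraries and 92.9, 109 and 115 FPKM in the WT libraries. All 3 genes were lower in each KO library than in each WT library, and the lowest WT library was replicate 2 for Ermap and Kel and replicate 1 for Cldn13. Their differences were -0.77 ± 0.192, -0.69 ± 0.180 and -0.77 ± 0.202, with adjusted p-values by edgeR of 0.180, 0.187 and 0.188 with 5 samples, and of 0.0399, 0.0433 and 0.0459 with the 6 libraries as labelled.

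Among the Rh proteins, Rhag, the Rh-associated glycoprotein that moves ammonium, was at 47.0, 43.8 and 44.9 FPKM in the KO libraries and 68.4, 57.3 and 85.9 FPKM in the WT libraries. Rhd, the mouse Rh antigen gene, was at 86.9, 57.8 and 57.3 FPKM in the KO libraries and 101, 116 and 138 FPKM in the WT libraries. In Rhag the 3 KO libraries were alike, whereas in Rhd the library labelled KO replicate 1 was nearer to WT replicate 1 than to KO replicates 2 and 3. The differences were -0.60 ± 0.182 for Rhag and -0.69 ± 0.240 for Rhd, with adjusted p-values of 0.228 and 0.278. Tspo2, an erythroid paralog of the mitochondrial translocator protein, was likewise intermediate in that library: 16.9, 10.6 and 10.8 FPKM in the KO libraries and 19.7, 22.8 and 26.8 FPKM in the WT libraries. Gypc, the glycophorin that anchors the skeleton, was at 42.1, 34.5 and 36.6 FPKM in the KO libraries and 52.2, 46.1 and 59.9 FPKM in the WT libraries. Tspo2 differed by -0.71 ± 0.249 and Gypc by -0.41 ± 0.162, and in neither did the groups overlap.

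In Xk and Icam4, unlike the other 15 membrane genes, the KO and WT libraries overlapped. Xk, which encodes the membrane partner of the Kell glycoprotein, was at 3.46, 5.55 and 4.91 FPKM in the KO libraries and 5.80, 4.65 and 5.92 FPKM in the WT libraries. Here the library labelled KO replicate 1 was the lowest, and KO replicates 2 and 3 lay within the WT range. Icam4, the adhesion molecule of the Landsteiner-Wiener blood group, was at 13.4, 6.74 and 8.75 FPKM in the KO libraries and 10.5, 17.7 and 15.9 FPKM in the WT libraries. For Icam4 it was the library labelled KO replicate 1 that lay within the WT range, and WT replicate 1 was below it. The differences, -0.32 ± 0.191 for Xk and -0.45 ± 0.340 for Icam4, had unadjusted p-values of 0.140 and 0.228.

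The regulators were lower in KO for 7 of 8 members, with a median of -0.54, and 4 had an unadjusted p under 0.05. Gata1, the master regulator of the lineage, was at 25.4, 21.4 and 23.1 FPKM in the KO libraries and 32.3, 35.5 and 41.3 FPKM in the WT libraries. Zfpm1, which encodes its cofactor FOG1, was at 23.2, 20.1 and 16.6 FPKM in the KO libraries and 23.4, 27.5 and 38.3 FPKM in the WT libraries. Tal1, which encodes a further partner in the same complex, was at 30.4, 29.2 and 28.2 FPKM in the KO libraries and 36.7, 35.3 and 48.3 FPKM in the WT libraries. The KO libraries of Gata1 and Tal1 were clearly separate from the WT libraries, while in Zfpm1 the library labelled KO replicate 1 was next to WT replicate 1. The differences were -0.59 ± 0.164 for Gata1, -0.49 ± 0.241 for Zfpm1 and -0.42 ± 0.172 for Tal1, and that of Gata1 had an adjusted p of 0.202 with 5 samples and 0.0503 with the libraries as labelled.

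Klf1, the erythroid Kruppel-like factor that drives beta-globin, was at 56.0, 36.6 and 35.2 FPKM in the KO libraries and 56.7, 70.6 and 88.2 FPKM in the WT libraries. The library labelled KO replicate 1 was thus barely below WT replicate 1, and the other KO libraries were far below it. Gfi1b, a repressor needed in red cell and megakaryocyte precursors, was at 14.3, 11.2 and 11.6 FPKM in the KO libraries and 17.1, 17.9 and 24.8 FPKM in the WT libraries. Hemgn (hemogen), a nuclear protein under GATA1, was at 82.9, 69.0 and 69.5 FPKM in the KO libraries and 115, 104 and 141 FPKM in the WT libraries. Klf1 differed by -0.62 ± 0.270, Gfi1b by -0.61 ± 0.221 and Hemgn by -0.63 ± 0.188. In the fit without the library labelled KO replicate 1 the difference of Klf1 was -1.04, and in the fit with it as the sole KO sample -0.28.

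The exceptions among the regulators were Nfe2 and E2f2. Nfe2, the p45 subunit of a factor that acts at globin and platelet genes, was at 73.0, 80.9 and 79.5 FPKM in the KO libraries and 64.8, 77.6 and 76.4 FPKM in the WT libraries. It was the one member with a difference above 0, 0.09 ± 0.152, and its KO and WT ranges overlapped. E2f2, a cell cycle factor of red cell precursors, was at 53.9, 61.7 and 60.4 FPKM in the KO libraries and 63.3, 60.3 and 74.4 FPKM in the WT libraries. KO replicates 2 and 3 lay at the level of WT replicates 1 and 2, and the difference of -0.18 ± 0.152 had an unadjusted p of 0.270.

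Of the receptors, Epor, the erythropoietin receptor, was at 26.1, 18.4 and 17.0 FPKM in the KO libraries and 27.8, 32.5 and 38.8 FPKM in the WT libraries. Tfrc, the receptor that takes up transferrin iron in most dividing cells, was at 68.7, 93.3 and 90.9 FPKM in the KO libraries and 109, 93.5 and 107 FPKM in the WT libraries. Tfr2, at chr5:137569840-137587481, encodes the second transferrin receptor, which senses iron in liver and red cell precursors, and was at 3.21, 3.53 and 3.15 FPKM in the KO libraries and 5.07, 5.01 and 6.89 FPKM in the WT libraries. All 3 genes were lower in each KO library than in each WT library, Tfrc by a small margin, but they ranked the KO libraries in different ways: Epor was lowest in KO replicates 2 and 3, Tfrc was lowest in the library labelled KO replicate 1, and Tfr2 was at one level in all 3. Tfr2 differed by -0.77 ± 0.191 with an adjusted p of 0.181 with 5 samples and 0.0441 with the libraries as labelled. The differences of Epor and Tfrc were -0.56 ± 0.236 and -0.34 ± 0.178, with unadjusted p-values of 0.0473 and 0.0953.

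The enzymes had the lowest median of the 4 roles: all 5 were lower in KO, all 5 had an unadjusted p under 0.05, and their median was -0.81. Bpgm, whose product makes the bisphosphoglycerate that lowers the oxygen affinity of hemoglobin, was at 81.4, 39.9 and 37.5 FPKM in the KO libraries and 124, 103 and 170.4 FPKM in the WT libraries. Car1, the carbonic anhydrase of mature red cells, was at 162, 85.3 and 87.5 FPKM in the KO libraries and 204, 232 and 299.6 FPKM in the WT libraries. Both were intermediate in the library labelled KO replicate 1, between KO replicates 2 and 3 and the WT libraries. The mean of Bpgm was 60.1 ± 30.2 FPKM in KO (SD, n = 2) and 133 ± 34.4 FPKM in WT (SD, n = 3), and that of Car1 was 124 ± 53.5 and 245 ± 49.3 FPKM. Bpgm differed by -1.10 ± 0.370 and Car1 by -0.94 ± 0.318, each with an adjusted p of 0.264, and without the library labelled KO replicate 1 by -1.81 and -1.54, with adjusted p-values of 0.0474 and 0.0478.

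Car2, the carbonic anhydrase that red cells share with osteoclasts, had the highest level of all members: 382, 297 and 297 FPKM in the KO libraries and 561, 532 and 664 FPKM in the WT libraries. Its groups were separate and its difference was -0.76 ± 0.240, with an adjusted p of 0.242. The 7 osteoclast markers summed to 570, 767 and 759 FPKM in the KO libraries and 1500.3, 734 and 702 FPKM in the WT libraries. In the 5-sample fit 6 of the 7 were lower in KO, with a median of -0.92 over the 7. At an unadjusted p under 0.05 by edgeR, 3 were lower, where 6.07% of all tested genes were. Mmp9, the 1 with a difference above 0, was at 201, 343 and 337 FPKM in KO and 253, 169 and 200 FPKM in WT. The marker sum was highest in WT replicate 1 and Car2 in WT replicate 3. The part of osteoclasts in the level of Car2 was not tested. Trim10, a ubiquitin ligase needed late in red cell maturation, at chr17:36869574-36877833, was at 91.1, 65.1 and 65.7 FPKM in the KO libraries and 131, 126 and 164 FPKM in the WT libraries. Trim58, the ligase that acts in enucleation, was at 6.02, 5.77 and 6.15 FPKM in the KO libraries and 9.36, 8.11 and 11.7 FPKM in the WT libraries. The groups of both did not overlap, and Trim58 was at one level in the 3 KO libraries. Trim10 differed by -0.81 ± 0.218 with an adjusted p of 0.195 with 5 samples and 0.0468 with the libraries as labelled, and Trim58 by -0.68 ± 0.193 with 0.209 and 0.0532.

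**Figure D2:**
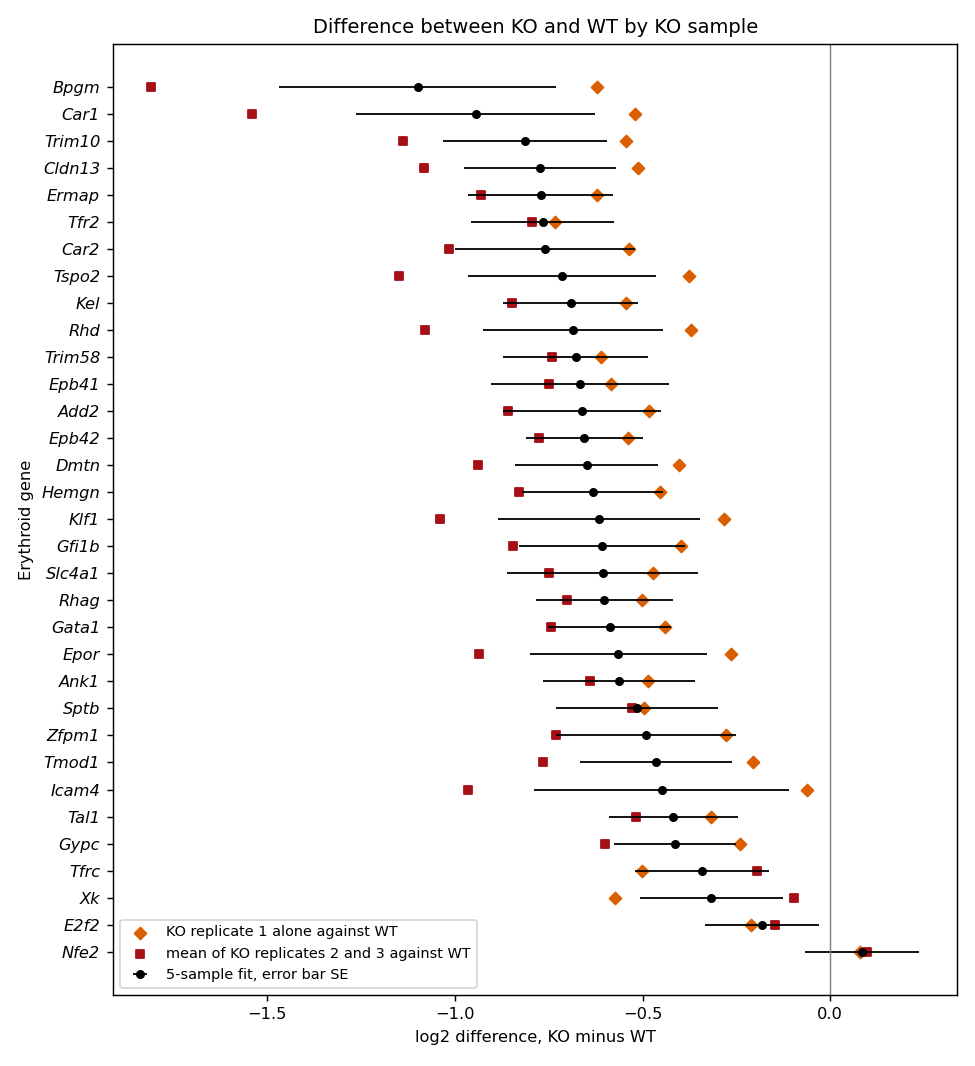
Difference between KO and WT (log2, KO minus WT) for each of the 33 erythroid genes, from the fit of the 5 samples with its SE (black), the fit with the library labelled KO replicate 1 as sole KO sample (orange) and the fit without it (red). Red lies left of orange for 29 genes, by most for Bpgm and Car1, and Nfe2 is the one gene right of 0 in the 5-sample fit.

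The 2 KO samples differed in how far they lay below WT. KO replicates 2 and 3 were on average below the library labelled KO replicate 1 for 29 of the 33 members, with a median gap of -0.35 on the log2 scale, where 50.1% of all tested genes were below it. The gap was over 0.5 for 11 members, against 17.5% of all tested genes. It was widest for Bpgm (-0.60 in the library labelled KO replicate 1 and -1.78 in the mean of KO replicates 2 and 3, relative to WT) and for Car1 (-0.50 and -1.52). The gap was almost nil for Sptb (-0.02), Tfr2 (-0.06) and Trim58 (-0.13). The 4 members in the other direction were Xk (0.48), Tfrc (0.31), E2f2 (0.07) and Nfe2 (0.02).

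**Figure D3:**
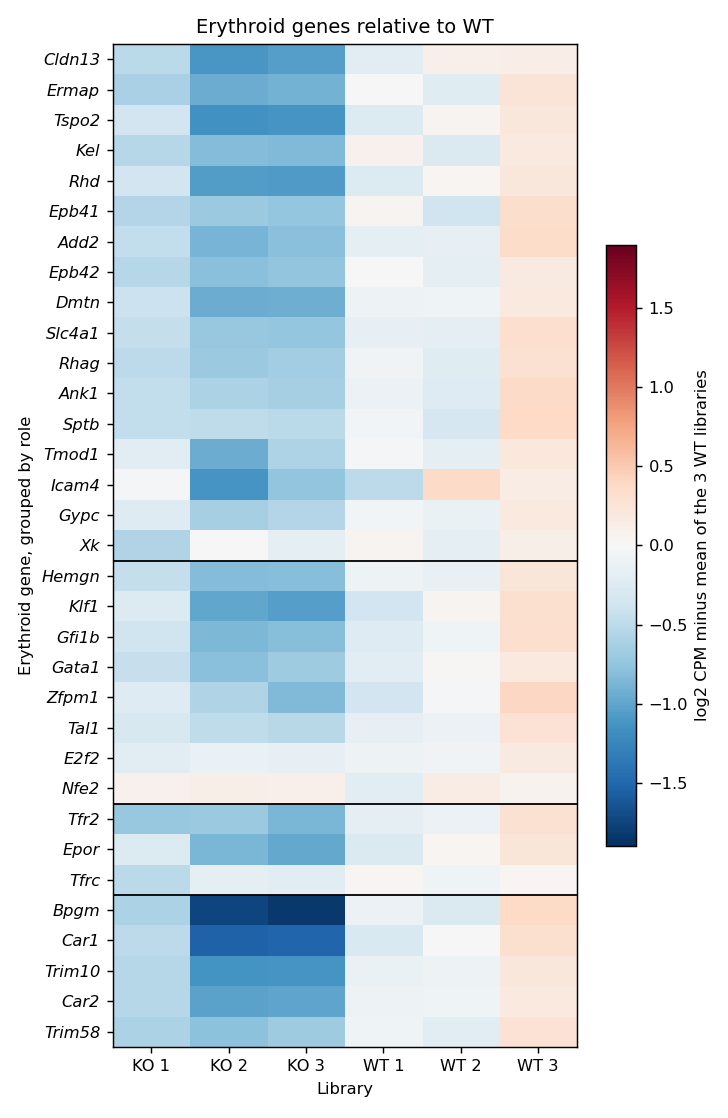
Level of each erythroid gene in each library relative to the mean of the 3 WT libraries (log2 CPM, blue lower and red higher), grouped by role. KO replicates 2 and 3 are the darkest blue columns (median -0.82 and -0.80), the library labelled KO replicate 1 is paler (median -0.47), and WT replicate 3 is red (median 0.23).

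The start regions of these genes were searched for the short sequences that erythroid factors are known to bind. The members were chosen as erythroid genes, so the shares of such sequences describe the list and not the difference between KO and WT. RefSeq start windows (GRCm38.p6) were matched for 25 of the 33 members, in 32 windows, of which the 250 bases before the start were searched on both strands. AGATAA, a form of the GATA factor motif, was found in 7 member windows (21.9%) and in 9.99% of the 32851 windows of all genes. TGATAA, the other form, was also found in 7 (21.9%, against 7.94%), and either of them in 13 (40.6%, against 16.6%). CACCC, the core bound by Kruppel-like factors, was present in 24 (75.0%, against 17087 of all 32851 windows). The longer CCNCNCCC, which can overlap CACCC, was in 22 (68.8%, against 45.9%), and CAGNTG, an E-box of the TAL1 kind, in 12 (37.5%, against 44.8%). Windows with a GATA motif and CACCC made up 11 of the 32 (34.4%, against 7.11%). Several genes have more than 1 window, windows of 1 gene can overlap, and a match is a stretch of letters and not a site shown to be bound.

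The 5 windows below are those that hold a GATA motif and CACCC and do not overlap any annotated exon. All 5 genes were lower in every KO library than in every WT library, as were 29 of the 33 members. These windows are written 5′ to 3′ on the strand of the gene and end at the base before the start. Capitals mark the GATA motifs and CACCC on either strand, where TTATCT stands for AGATAA on the other strand. Likewise GGGTG stands for CACCC. They lie at chr17:36869324-36869573 on the plus strand (Trim10), chr9:21963577-21963826 on the minus strand (Epor), chr4:134864286-134864535 on the plus strand (Rhd), chr2:28621983-28622232 on the minus strand (Gfi1b) and chr4:115056176-115056425 on the plus strand (Tal1).
Trim10: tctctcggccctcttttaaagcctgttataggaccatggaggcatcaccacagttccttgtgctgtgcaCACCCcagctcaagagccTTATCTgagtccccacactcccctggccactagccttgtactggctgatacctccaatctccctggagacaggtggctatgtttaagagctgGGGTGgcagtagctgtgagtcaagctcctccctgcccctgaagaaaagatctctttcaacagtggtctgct
Epor: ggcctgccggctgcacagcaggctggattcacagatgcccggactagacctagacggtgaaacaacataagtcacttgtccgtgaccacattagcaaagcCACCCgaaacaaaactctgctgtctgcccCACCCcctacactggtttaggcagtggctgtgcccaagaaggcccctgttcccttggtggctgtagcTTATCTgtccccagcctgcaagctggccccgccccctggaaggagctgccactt
Rhd: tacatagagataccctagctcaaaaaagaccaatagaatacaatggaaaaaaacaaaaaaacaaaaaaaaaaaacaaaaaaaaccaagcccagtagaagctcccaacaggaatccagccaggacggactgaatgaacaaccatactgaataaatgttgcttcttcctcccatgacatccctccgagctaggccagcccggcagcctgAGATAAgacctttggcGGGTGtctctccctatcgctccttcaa
Gfi1b: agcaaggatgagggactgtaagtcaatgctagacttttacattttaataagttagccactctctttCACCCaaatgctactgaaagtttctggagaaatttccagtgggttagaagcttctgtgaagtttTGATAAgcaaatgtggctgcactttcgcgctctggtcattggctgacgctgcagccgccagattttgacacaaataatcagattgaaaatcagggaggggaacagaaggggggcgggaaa
Tal1: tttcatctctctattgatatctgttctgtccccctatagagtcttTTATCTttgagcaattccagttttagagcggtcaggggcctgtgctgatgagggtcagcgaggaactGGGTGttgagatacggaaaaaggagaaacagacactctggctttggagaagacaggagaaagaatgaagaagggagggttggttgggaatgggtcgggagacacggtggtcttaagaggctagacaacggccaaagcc

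In Trim10 and Epor the window held 1 GATA motif, as TTATCT, and 2 CACCC matches, and in Rhd and Tal1 each of them once. The window of Gfi1b had TGATAA in place of AGATAA. By contrast, the window of Gata1 held CACCC 2 times and no GATA motif, and that of Trim58 held none of the 5 motifs. Both genes were also lower in every KO library than in every WT library. Tal1 has a further window, which held no GATA motif and no CACCC.

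Other genes of the red cell program, which are no members, were more mixed in direction. Of 41 such genes, 28 were lower and 13 were higher in KO, with a median of -0.26. At an unadjusted p under 0.05 by edgeR, 15 were lower, where 6.07% of all tested genes were. At the same limit 3 were higher, and the share of all tested genes that were higher is not given here. None passed the adjusted threshold with 5 samples. With the libraries as labelled, 3 were called lower, namely Pklr, the red cell pyruvate kinase, Fam210b and Sox6, and 1 was called higher, Erfe. In that fit 570 of the 15373 tested genes were called, 192 of them lower (1.25% of all tested genes). Pklr was at 6.31, 6.63 and 5.59 FPKM in the KO libraries and at 10.7, 9.92 and 15.0 FPKM in the WT libraries, which differed by -0.92 ± 0.205 (SE). Erfe, which encodes the hormone erythroferrone that red cell precursors release under erythropoietin, was at 1.07, 3.73 and 2.56 FPKM in the KO libraries and at 0.479, 0.507 and 0.643 FPKM in the WT libraries. It was thus higher in each KO library, by 1.94 ± 0.433 (SE) with an adjusted p of 0.168 with 5 samples and 0.0422 with the libraries as labelled. Slc2a1, the glucose transporter of red cells and many other cells, and Socs3, a feedback inhibitor of cytokine receptors, were the remaining genes above 0 at an unadjusted p under 0.05, by 0.66 ± 0.175 and 0.47 ± 0.179.

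In the globin genes and the heme pathway, as in the members, KO replicates 2 and 3 had the lowest medians, followed by the library labelled KO replicate 1 and the WT libraries. This order was not particular to red cell genes. B cell markers had it too, at -1.09 in the library labelled KO replicate 1 and -1.67 in the mean of KO replicates 2 and 3. The other genes of the pathway also had it. All 4 globin genes found were lower in KO, with a median of -0.99, but none had an unadjusted p under 0.05. Their median relative to WT was -0.45 in the library labelled KO replicate 1 and -1.79 in the mean of KO replicates 2 and 3. All 11 heme synthesis genes were lower, with a median of -0.56, and 8 had an unadjusted p under 0.05.

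Markers of other cells differed between the groups as well. The 8 B cell markers were lower in KO, all 8 with an unadjusted p under 0.05 and a median of -1.39, and summed to 86.1 to 136 FPKM in KO and 273 to 305 FPKM in WT. The 9 neutrophil markers were higher in KO, 6 of them with an unadjusted p under 0.05 and a median of 0.87. For that count, too, the share of all tested genes that were higher is not given here. The 10 chondrocyte markers tested had a median of 0.060, from 0.60 in the library labelled KO replicate 1 to -0.52 in the mean of KO replicates 2 and 3. Skeletal muscle markers, 6 in all, summed to 240 FPKM in WT replicate 3, the library with the highest erythroid levels, to 129 FPKM in the library labelled KO replicate 1, to 30.0 and 49.3 FPKM in the other WT libraries and to 4.27 and 3.43 FPKM in KO replicates 2 and 3. The part of these other cells in the values of the erythroid genes was not tested.

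**Figure D4:**
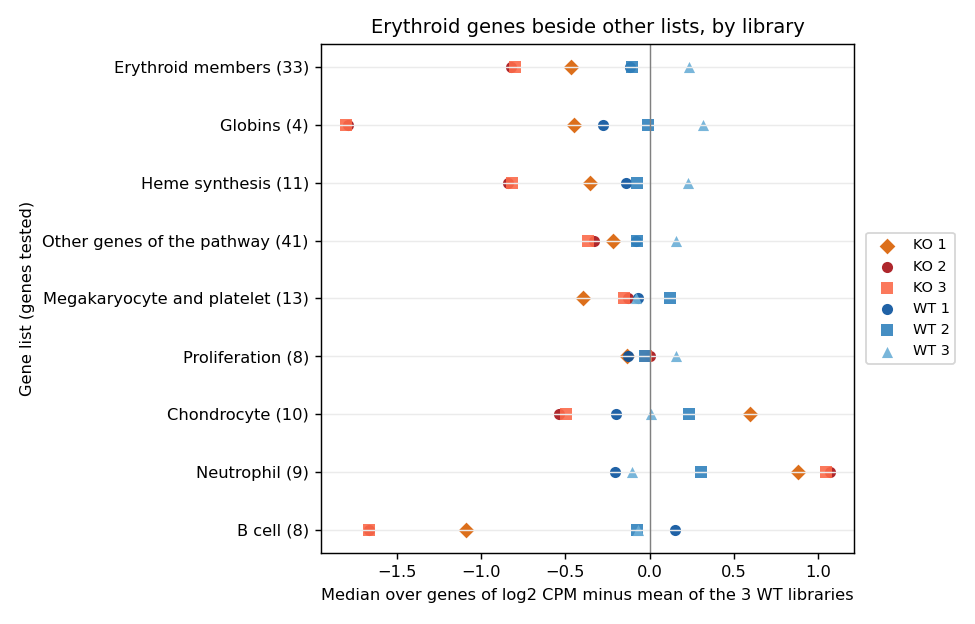
Median over the genes of each list of the level relative to the mean of the 3 WT libraries (log2 CPM), with 1 point per library and the number of genes tested in brackets. Globin, heme synthesis and B cell genes and the other genes of the pathway order the libraries as the erythroid members do. That order runs from KO replicates 2 and 3 over the library labelled KO replicate 1 to WT. Neutrophil markers lie highest in KO, and chondrocyte markers highest in the library labelled KO replicate 1 (0.60).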

How the data were processed

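RNA-seq of articular cartilage was deposited as 1 gene table with estimated counts and FPKM per library. Per the labels, poly(A) RNA was sequenced from stranded libraries with molecular identifiers. The submitters' processing notes name cutadapt 1.9, HISAT2 2.0.4, UMI-tools, StringTie 1.3.4d, DESeq2 and edgeR, without roles. The count columns deposited by the authors are whole-number estimates and were used as they stand, and the FPKM values deposited by the authors are scaled for transcript length and library total and served for levels and for the filter of a mean of 0.5 FPKM. The genome build is not given in the sources used here, but 29 of the 33 members have the same start and end as in GENCODE M21 (GRCm38). The name and values of the knocked-out gene and of some genes of the lists are not reported here.

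KO replicates 2 and 3 were averaged, and the rounded means entered edgeR 4.0.16 (R 4.3.3, TMM scaling, quasi-likelihood test, Benjamini-Hochberg adjustment over 15373 genes, threshold 0.05) with the library labelled KO replicate 1 and WT replicates 1 to 3. The SE of an edgeR difference is its size without the sign, divided by the square root of the test's F statistic. Log2 CPM used a prior count of 2. DESeq2 1.42.0, limma 3.58.1 (log2(FPKM + 1) and log2(FPKM + 0.1), and quantile normalization), other scalings and filters, a replicate block and each library left out were the alternatives. Depth was 52268311 to 63331135 counts, and 3 counts correspond to at most 0.0574 CPM, which covers counting error only. The members, the gene lists and the rule that gives the value in every library for members with a mean of at least 5 FPKM, called or without overlap between groups were chosen with earlier results of these data known. Start windows came from a RefSeq table, and 25 members were matched. Windows on chromosome 18, where Gypc lies, were left out of the member windows but not out of the windows of all genes.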

Additional observations from a re-analysis of the deposited data

How the results depend on the processing

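The direction of the members held: of 560 values of single members under 17 alternatives, 537 kept their direction and side of the threshold, 22 passed it in addition, and 1 reversed, that of Nfe2, which ranged from -0.011 without WT replicate 1 to 0.16 without WT replicate 2. The median difference of the members ranged from -0.80 without KO replicate 1 to -0.45 without WT replicate 3. The number of members called moved from 0 to 6 with the 6 libraries as labelled and to 13 with DESeq2, and over the fits that leave out 1 library it ranged from 0 to 3. All genes called moved from 0 to 570 with the 6 libraries as labelled, to 21 with no filter, to 879 with DESeq2 and to 9 without KO replicates 2 and 3, and ranged from 0 to 352 when 1 library was left out, with 352 without KO replicate 1. The cause was not tested, except that the libraries as labelled give 1 more sample to the KO group. Samples of 1 replicate number did not deviate together (correlations of -0.14, -0.11 and -0.058), and 0 of the 3 KO libraries correlated best with the WT library of their number. KO replicates 2 and 3 were too alike for this to show whether libraries of 1 number were paired. With a replicate block on the 6 libraries as labelled, 0 members and 0 genes were called, against 6 and 570 without it, and the median of the members was -0.69. At a minimum of 5 FPKM, Tfr2 was not tested. Every member had at least 527 counts in each library.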

Other observations

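Megakaryocytes arise from the same precursors as red cells and use GATA1, FOG1, GFI1B and NFE2. Their 13 marker genes were lower in KO in the 5-sample fit for 13 of 13, with a median log2 difference of -0.24 and 0 at an unadjusted p under 0.05 by edgeR. They ordered the KO samples differently from the erythroid genes: their median relative to WT was -0.40 in the library labelled KO replicate 1 and -0.14 in the mean of KO replicates 2 and 3. Pf4, a platelet chemokine, was at 214, 210.2 and 220 FPKM in the KO libraries and at 228, 302 and 232 FPKM in the WT libraries.

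Of 8 proliferation genes, 5 were lower and 3 higher in KO, with a median of -0.061 and 0 at an unadjusted p under 0.05. Mki67 was at 72.3, 99.1 and 97.3 FPKM in the KO libraries and at 97.3, 72.6 and 107.8 FPKM in the WT libraries, with overlapping groups. The 7 osteoblast markers had a median of -0.52 and 0 at an unadjusted p under 0.05, and summed to 996, 1122 and 1131 FPKM in the KO libraries and to 2266, 2148 and 760.1 FPKM in the WT libraries, so that WT replicate 3 was below all KO libraries.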
